A study of Mus musculus with 5 samples.

Results

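Transcripts of adhesion G protein-coupled receptors (adhesion GPCRs), among them the F4/80 gene Adgre1, were measured in mouse macrophages grown from bone marrow and in the osteoclasts they form, large cells with many nuclei that dissolve bone. The genes were taken by symbol, from array rows that the platform annotation gives to exactly 1 gene. Of 5 listed genes, Adgre1, Adgre4, Adgrl2 and Adgrg6 had such a row, so 4 of 22180 genes in the table are described. The only row that names Adgre5, the CD97 gene, names Ddx39a as well, and no level is given for Adgre5. All cells came from wild-type mice aged 10 weeks and were kept on plastic in 20 ng/ml M-CSF, on which macrophages depend for growth and survival. RANKL, the signal for osteoclast formation, is listed at 30 ng/ml for all 5 samples alike. That entry does not tell whether the day 0 cells had already received it. Samples were collected at day 0 (macrophages), at days 1, 2 and 3 (differentiating cells) and at day 5 (cells labelled mature osteoclasts), with 1 array a day made from 5 ng of total RNA. How many mice were used, and whether marrow was pooled, the labels do not say.

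Adhesion GPCRs combine a membrane-spanning GPCR core with a long extracellular part, in which a membrane-proximal domain lets many of them cut themselves, leaving a tethered peptide that can activate the receptor. Adgre1, Adgre4 and Adgre5 belong to the subfamily with epidermal growth factor-like repeats, found mostly on leukocytes. F4/80, the product of Adgre1, is the antigen most widely used to recognise mouse macrophages. Adgre4 encodes a related receptor of mouse myeloid cells, also called FIRE. Adgrl2 encodes latrophilin 2, a receptor of teneurins and FLRT proteins on neighbouring cells. Adgrg6 encodes GPR126, which raises cAMP through Gs and is needed for myelination by Schwann cells in zebrafish and mice.

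With 1 array a day there was no spread between cultures and no test was run, so every difference below compares single arrays and is a description. All values are deposited log2 values, and each difference is on the log2 scale with the earlier array subtracted from the later. A gene is called higher or lower where 2 arrays lay at least 1 apart, which is 2-fold, and measured where its average reached 4.89, the median over all rows. Of the 22180 genes 12049 were measured, including the 4 adhesion GPCRs. Array medians lay between 4.88 and 4.92. As a yardstick, an SD of 0.42 was taken for the day 5 minus day 0 difference of a single row. It came from the disagreement of 2 rows of one gene over 426 genes, which may include real differences between the rows. It does not cover the spread between cultures. Cells cultured with M-CSF alone were not analysed here, so time in culture and osteoclast differentiation cannot be told apart. In these bulk samples fewer cells of a type and less RNA per cell cannot be told apart either. By markers, 14 of 14 osteoclast markers were higher at day 5 than at day 0, against 6.78% of all measured genes. Their median difference was 5.67, and 17 of 19 macrophage markers with a row were measured.

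The 4 genes took separate courses. Adgre1 was highest in the macrophages and lower on every later array, Adgre4 was highest at day 5, Adgrg6 was lowest at day 1, and Adgrl2 stayed within 0.21 on all 5 arrays. Adgre4 spanned 3.42 over the 5 arrays, a range that 0.946% of measured genes reached or exceeded. The range of Adgre1 was 1.75 and that of Adgrg6 1.04, against a median of 0.59 over all measured genes, and 86.0% of measured genes had a range at least as wide as that of Adgrl2.

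**Figure D1:**
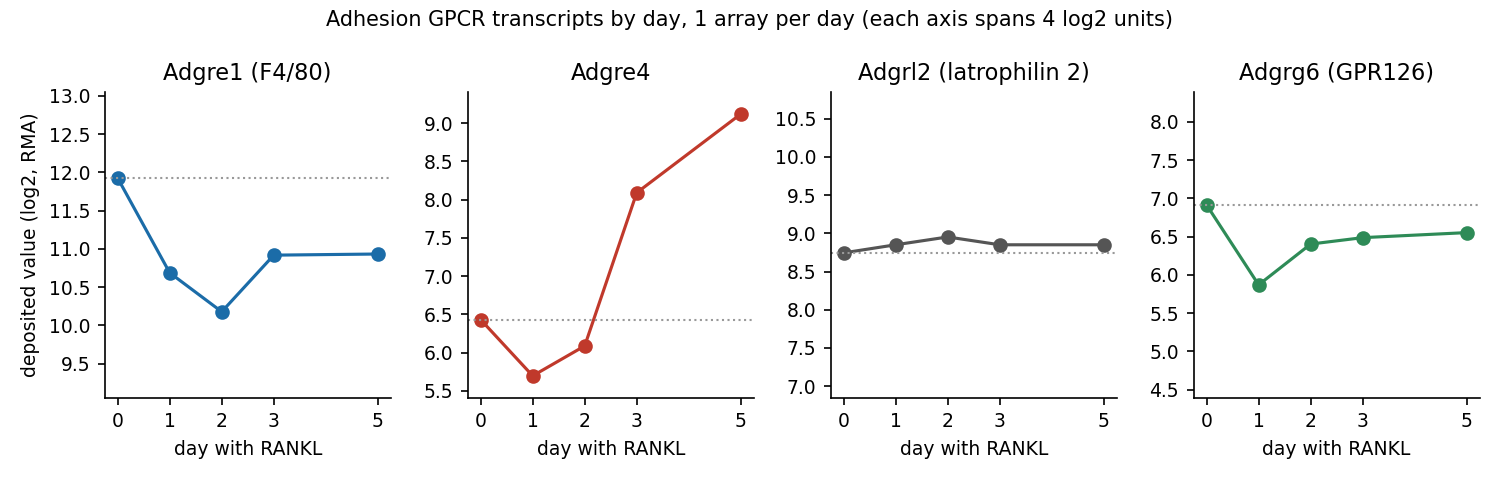
Deposited log2 value of each gene (vertical axis, spanning 4 log2 units in each panel) by day with RANKL (horizontal axis), 1 point per array, with the day 0 value as a dotted line. Adgre1 lies below its day 0 value of 11.93 on every later array, Adgre4 ends at 9.12 after points below 6.43 on days 1 and 2, Adgrl2 lies between 8.74 and 8.95, and Adgrg6 is lowest at 5.87 on day 1.

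Counts over the 4 genes are set beside the share of measured genes past the same size. At day 1, 2 of 4 were lower than at day 0 (Adgre1 and Adgrg6) and 0 higher, against 4.17% lower and 2.91% higher of all measured genes. At day 2, 1 was lower (Adgre1) and 0 higher, against 5.25% and 5.18%. At day 3, 1 was higher (Adgre4) and 1 lower (Adgre1), against 7.29% and 7.5%. At day 5, 1 was higher (Adgre4) and 0 lower, against 6.78% and 6.56%. Set against day 1 in place of day 0, 1 was higher at day 5 (Adgre4) and 0 lower, against 6.3% and 6.73%. Only 4 genes stand behind each count, so the values of single genes carry the description.

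**Figure D2:**
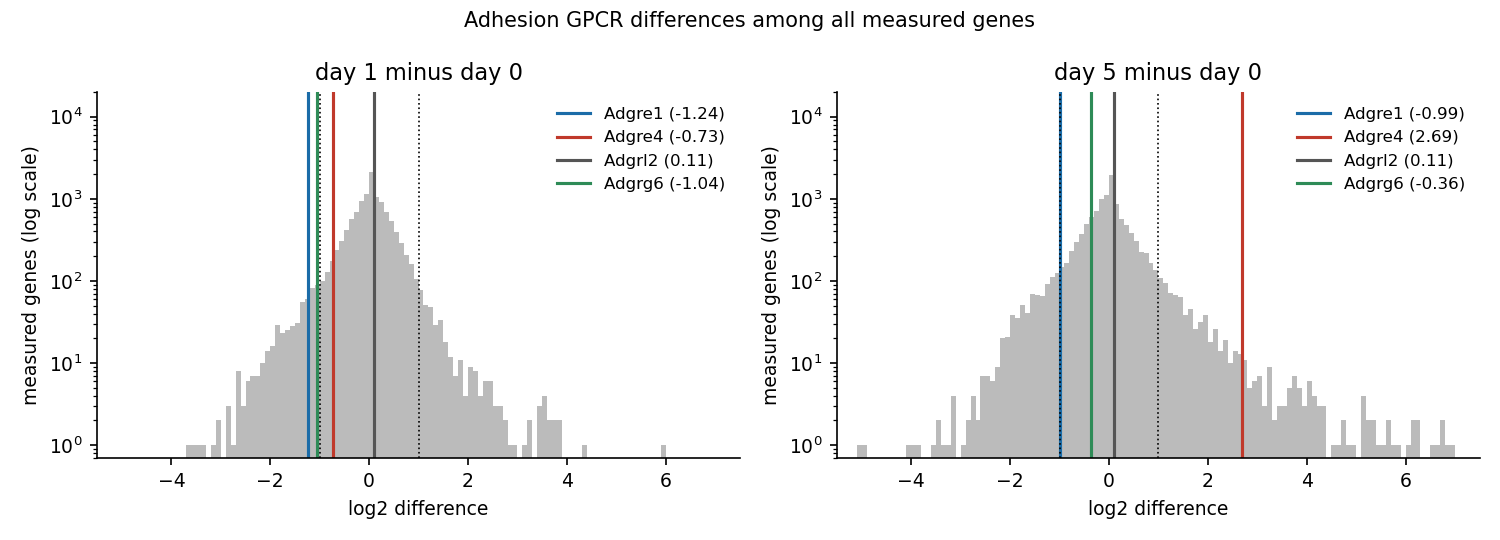
Number of measured genes (vertical axis, log scale) by log2 difference from day 0 (horizontal axis) at day 1, left, and day 5, right; coloured lines mark the 4 adhesion GPCR genes and dotted lines a 2-fold difference. At day 1 Adgre1 (-1.24) and Adgrg6 (-1.04) lie past the lower dotted line, and at day 5 Adgre4 (2.69) lies far to the right while Adgre1 (-0.99) lies on the edge.

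Adgre1, the macrophage antigen F4/80, had log2 values of 11.93 at day 0, 10.69 at day 1, 10.18 at day 2, 10.92 at day 3 and 10.93 at day 5. The macrophage array stood above all others, day 2 was the lowest, and days 3 and 5 held nearly the same value. On the linear scale the signal was 42.4% of that of day 0 at day 1, 29.8% at day 2, 49.7% at day 3 and 50.2% at day 5. Its difference from day 0 was -1.24 at day 1, -1.75 at day 2, -1.01 at day 3 and -0.99 at day 5, so that the day 5 array lay just short of the 2-fold size, at 1.99-fold lower. A signal at this level remained on the day 5 array, a bulk sample labelled mature osteoclasts. Which cells of that culture held the transcript was not tested. Between consecutive arrays the difference was -0.51 from day 1 to day 2, 0.74 from day 2 to day 3 and 0.01 from day 3 to day 5. Ordered by level, days 5, 3 and 1 stood closer to each other than the yardstick of 0.42, while day 0 above them and day 2 below them were farther apart than that. Against day 1, day 5 was 0.25 higher.

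Macrophage markers served as the background for that course. Of 17 measured markers 15 were highest at day 0, against 27.4% of all measured genes, and 14 were lowest at day 1 or day 2, against 34.7%. For 10 of 17 the highest value was at day 0, the lowest at day 1 or 2, and day 5 lay at least 0.5 above that lowest value, as for Adgre1; this course was held by 3.33% of measured genes. Mertk, a receptor for the uptake of dying cells, had 10.07, 7.24, 7.45, 9.34 and 9.65 at days 0, 1, 2, 3 and 5, a deeper and more complete dip than that of Adgre1. This gene and the transcription factor Maf were chosen after their values were seen. Maf stood at 9.77, 7.16, 7.30, 8.28 and 8.50 on the same days. From day 1 to day 5 Mertk (2.41) and Maf (1.34) rose the most of the 17, so they do not stand for the list. Cx3cr1 went another way, with 9.69, 7.89, 7.72, 5.86 and 6.23, lowest at day 3. Msr1 was also lowest at day 3 (9.84). At day 5, 1 of the 17 markers was higher than at day 0, the transcription factor Spi1 (1.10), and 8 were lower. The shares of all measured genes were 6.78% and 6.56%. The median of the markers was -0.79, against 0.00 over all measured genes. The largest differences were those of the fractalkine receptor Cx3cr1 (-3.46), the IgG receptor Fcgr1 (-2.54), the sialic acid-binding Siglec1 (-1.85) and the mannose receptor Mrc1 (-1.76). Against day 1 the counts turned, with 4 of 17 higher, 1 lower and a median of 0.45, beside 6.3% and 6.73% of all measured genes. Eosinophils also carry F4/80 in the mouse, and of their 5 markers with a row Siglecf, Epx and Il5ra lay below the level filter on average. The measured ones, the chemokine receptor Ccr3 (2.33) and Prg2 (1.32), were higher at day 5 than at day 0; their part in the Adgre1 values was not tested.

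Adgre4, the FIRE receptor gene, had log2 values of 6.43 at day 0, 5.70 at day 1, 6.09 at day 2, 8.09 at day 3 and 9.12 at day 5. The first 3 arrays were low, the last 2 were high, and the highest of the low arrays was 1.66 below the day 3 array. Against day 0 the difference was -0.73 at day 1, -0.34 at day 2, 1.66 at day 3 and 2.69 at day 5, where the signal was 6.45-fold higher. That difference ranked 117 of 12049 measured genes from the top. Against its lowest array, day 1, day 5 was 10.7-fold higher (3.42). Days 0, 2 and 1 followed each other in level by less than the yardstick, while days 5 and 3 stood apart from each other and from the rest by more than it.

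Most of the Adgre4 difference came late. It was 2.00 from day 2 to day 3, a 4.01-fold step, while 0 of the other 3 adhesion GPCRs were higher and 0 of the 4 lower, against 2.08% higher and 3.91% lower of all measured genes. From day 3 to day 5 it was 1.03, when again 1 of 4 was higher and 0 lower, against 0.158% and 0.116%. From day 1 to day 2, when 0 of 4 were higher and 0 lower (2.46% and 0.556% of measured genes), it was 0.39. Only 3 measured genes were higher in both late steps, and apart from Adgre4 these were the B cell chemoattractant Cxcl13 and the predicted gene Gm4553, both named after their values were seen. That count hangs on the cutoff of 1, which Adgre4 barely passed in the last step (1.03). Pde7b, also named after its values were seen, missed it with steps of 0.96 and 1.00. Cxcl13 had 4.40, 4.79, 4.46, 5.73 and 7.05 at days 0, 1, 2, 3 and 5. Its values up to day 2 lay below the level filter, so the size of its step to day 3 is not exact.

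Osteoclast markers were higher earlier than Adgre4. All 14 were higher at day 2 than at day 0 and 9 of 14 at day 1, whereas Adgre4 was below its day 0 value on both arrays. The shares of all measured genes that were higher were 5.18% and 2.91%. From day 2 to day 3, 3 of the 14 osteoclast markers were higher, and from day 3 to day 5 0 of 14, beside 2.08% and 0.158% of measured genes. The 3 were Calcr (3.51), named after its values were seen, Oscar (2.37) and Itgb3 (1.57). The steps of Calcr and Oscar were larger than that of Adgre4 (2.00). Among the markers, the largest differences of day 5 from day 0 were those of carbonic anhydrase 2, Car2 (6.91), and the collagen-binding receptor Oscar (6.80). The collagen-degrading protease Ctsk (6.75) and the integrin chain Itgb3 (6.12) followed. The day 0 values of Car2 (3.49), Oscar (4.88) and Itgb3 (4.25) lay below the level filter, so the sizes of their differences are not exact. Of all measured genes 31 lay below day 0 at day 2 and were 2-fold or more above it at day 5, as Adgre4 did. FIRE is also known from mouse monocytes, and of 4 measured monocyte markers 0 were higher at day 5 and 2 lower, Ccr2 (-1.84) and Ly6c2 (-1.37), with a median of -1.15; Nr4a1 was at -0.92 and Treml4 at -0.26. The dendritic cell integrin chain Itgax was higher (1.33, but -0.17 against day 1), and the other 5 of 6 measured dendritic cell markers were neither. Over all measured genes 6.78% were higher and 6.56% lower at day 5 than at day 0. The part of monocytes and dendritic cells in the Adgre4 values was not tested.

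**Figure D3:**
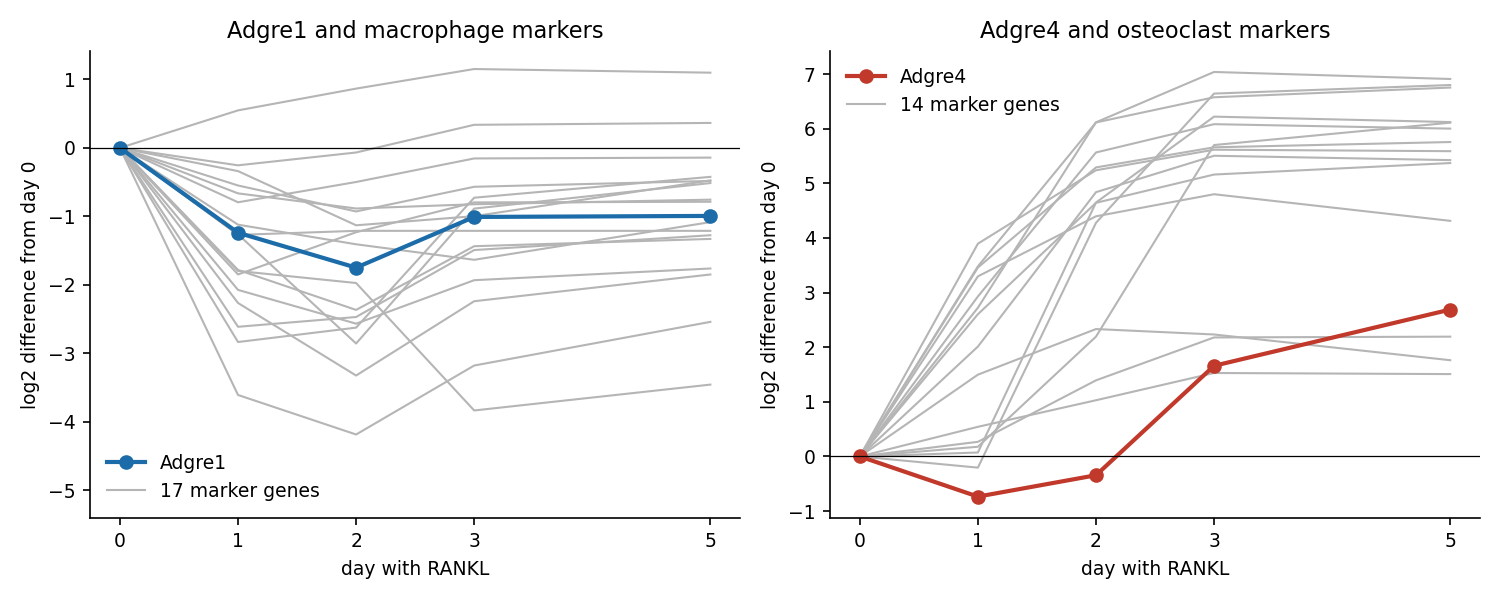
Log2 difference from day 0 (vertical axis) by day with RANKL (horizontal axis); left, Adgre1 in blue over 17 macrophage markers in grey; right, Adgre4 in red over 14 osteoclast markers in grey, 1 line per gene and 1 array per day. Adgre1 dips to -1.75 at day 2 within the spread of the macrophage markers, and Adgre4 is at -0.34 at day 2, when all 14 osteoclast markers are already higher, and at 2.69 at day 5.

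Adgrg6, the GPR126 gene, had log2 values of 6.91 at day 0, 5.87 at day 1, 6.40 at day 2, 6.49 at day 3 and 6.55 at day 5. The macrophage array was the highest and day 1 alone was low. Its signal was 2.06-fold lower at day 1 than at day 0 (-1.04), 1.43-fold lower at day 2 (-0.51), 1.34-fold lower at day 3 (-0.43) and 1.28-fold lower at day 5 (-0.36). Against day 1, day 5 was 0.68 higher. Days 0, 5, 3 and 2 followed each other in level by less than the yardstick, and day 1 lay 0.53 below day 2. The course of Adgrg6 shared with that of Adgre1 the high macrophage array and the low day 1, but day 2 was the lowest array for Adgre1 only.

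Adgrl2, the latrophilin 2 gene, had log2 values of 8.74 at day 0, 8.85 at day 1, 8.95 at day 2, 8.85 at day 3 and 8.85 at day 5. No array was clearly high or low, and every difference from day 0 lay between 0.11 and 0.21, or 1.08-fold and 1.16-fold. The 3 equal values are identical in the table, a tie of the kind that the summary of probes by median polish can give. Such a tie of days 1, 3 and 5 was found in 4.32% of measured genes and in 24 of 2000 genes (1.20%) whose mean lay within 0.5 of that of Adgrl2. With 1 array a day these values do not show that the transcript was constant.

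Where RefSeq (assembly GRCm38.p6) lists a start site for these genes, the sequence from 250 bases before to 50 bases after it was searched for short motifs of factors at work in macrophages and osteoclasts. Adgre4, Adgrl2 and Adgrg6 had an entry. Searched on both strands were GAGGAA (the core bound by PU.1), TGANTCA (AP-1), GGAAA (NFAT, which can overlap GAGGAA), TCANGTGA (MITF and its relatives) and TATAAA (the TATA box). The windows of Adgre4, whose transcript was highest at day 5, and of Adgrg6, whose transcript was lowest at day 1, are shown to set an AT-rich start region beside a GC-rich one. They lie at chr17:55749734-55750033 on the plus strand and at chr10:14544987-14545286 on the minus strand, and capitals mark each match.
Adgre4: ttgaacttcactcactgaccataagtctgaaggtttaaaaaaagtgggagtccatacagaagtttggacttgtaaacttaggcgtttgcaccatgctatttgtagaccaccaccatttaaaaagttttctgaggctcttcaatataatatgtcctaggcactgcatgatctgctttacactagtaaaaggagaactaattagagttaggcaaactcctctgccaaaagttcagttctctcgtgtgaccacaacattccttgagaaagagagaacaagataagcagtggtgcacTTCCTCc
Adgrg6: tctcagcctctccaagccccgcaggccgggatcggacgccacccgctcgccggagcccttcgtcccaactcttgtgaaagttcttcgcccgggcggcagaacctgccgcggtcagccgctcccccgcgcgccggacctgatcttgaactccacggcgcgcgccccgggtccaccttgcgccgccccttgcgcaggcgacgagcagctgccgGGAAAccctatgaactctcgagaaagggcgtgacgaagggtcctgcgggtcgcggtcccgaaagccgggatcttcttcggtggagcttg
The Adgre4 window held 1 match of GAGGAA, on the minus strand and read above as TTCCTC, which starts 44 bases into the transcript, and none of the other motifs; 28.3% of the 32851 listed windows hold GAGGAA. The Adgrg6 window held 1 match of GGAAA, starting at position -39, a motif found in 61.3% of windows. The Adgrl2 window held 1 TATAAA, a motif found in 13.6% of windows. It starts at position -53 on the minus strand of the window, so it runs against the direction of the gene. TGANTCA, in 7.81% of windows, and TCANGTGA, in 4.18%, were matched in none of these. The GC content was 40.3% for Adgre4, 38.0% for Adgrl2 and 69.0% for Adgrg6, against a median of 52.7% over all windows. A match is a description of the letters and no sign of binding.

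The coding genes up to 2 places to either side of each gene in the RefSeq order were read at day 5 against day 0, and all those measured are given. Beside Adgre4, Pot1b, a telomere-binding protein gene, was at -0.18, and the zinc finger genes Zfp119a and Zfp959 were at 0.00 and -0.39, while Adgre4 was at 2.69. Beside Adgre1, the exchange factor gene Vav1 was at -0.40 and Gpr108 at 0.15. Beside Adgrl2, the protein kinase A subunit gene Prkacb was at -0.83. Beside Adgrg6, Aig1 was higher at 1.28, and Hivep2, a zinc finger factor gene, and Vta1 were at 0.30 and 0.17.

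For each of the 4 genes the measured genes with the most similar course were found by the root mean square distance between log2 values, each gene centred on its own mean over the 5 arrays, among 10999 genes. Nearest to Adgre1 were Tlr7 (distance 0.040), the endosomal receptor of single-stranded RNA, Cyp51 (0.080), a sterol demethylase, and Gab3 (0.082), a docking protein of M-CSF signalling. Tlr7 had 9.17, 7.85, 7.47, 8.17 and 8.18 at days 0, 1, 2, 3 and 5. Nearest to Adgre4 were Corin (0.33), a membrane serine protease, Sugct (0.45) and Bmp2 (0.46), a bone morphogenetic protein. Bmp2 lay below the level filter at days 0, 1 and 2 (4.28, 4.06 and 4.41), and Sugct at days 0 and 1 (4.76 and 4.37). Their early courses and distances are therefore not exact. Within a distance of 0.25 there were 185 genes for Adgre1 and 0 for Adgre4. The distance is in log2 units and few measured genes ranged as widely as Adgre4. The 0 therefore does not show that the shape of its course was unique. Corin, the closest, had 5.35, 5.14, 5.77, 7.36 and 7.91, higher at day 2 than at day 0 where Adgre4 was lower. Nearest to Adgrg6 were Cotl1 (0.050), an actin-binding protein, Fkbp15 (0.065) and the acyltransferase Agpat3 (0.066), with 668 genes within 0.25. Nearest to Adgrl2 were Ttc1 (0.0063), Atpaf1 (0.0085) and Zbtb41 (0.013), with 6063 within 0.25, since many genes were nearly flat. All of these distances rest on the same 5 arrays.

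The rest of the adhesion GPCR family was mostly below the level filter. Of 30 family genes listed, 27 had a row of their own and 12 were measured, 8 of them besides the 4 genes above. Of these 8, 2 were higher at day 5 than at day 0 and 0 were lower, and the median was -0.06. The shares of all measured genes were 6.78% and 6.56%. Adgra3, the GPR125 gene, had 5.75, 6.73, 8.56, 8.90 and 8.81 at days 0, 1, 2, 3 and 5, and was 8.32-fold higher at day 5 (3.06), the largest difference among the 12 measured family genes. Most of it was present at day 2 (2.80), a day when Adgre4 was still below its day 0 value. Adgrf1, the GPR110 gene, had 4.52, 5.61, 6.75, 7.20 and 6.36 on the same days, highest at day 3 and higher at day 5 than at day 0 (1.84). Its day 0 value lay below the level filter, so the size of that difference is not exact. Adgrb1, which encodes the phosphatidylserine receptor BAI1, was at 0.66, Adgrl1 at -0.31 and Celsr3 at -0.21, all with values near the filter level, where background handling compresses differences. Celsr1, a planar polarity cadherin named after its values were seen, had 5.29, 4.85, 6.37, 5.99 and 5.15, so it was higher at day 2 (1.08) and back near its first value at day 5. Adgre1 was the lowest of the 12 at day 5 against day 0, and Adgre4 stood second after Adgra3.

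**Figure D4:**
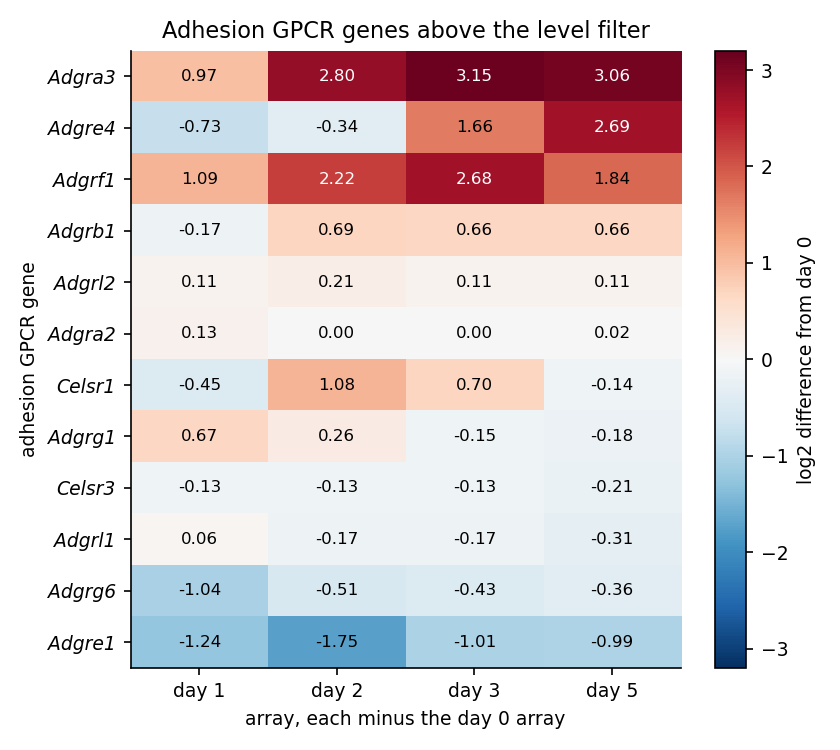
Log2 difference from the day 0 array (colour and printed value; red higher, blue lower) for the 12 measured adhesion GPCR genes (vertical axis, ordered by the day 5 difference) on the arrays of days 1, 2, 3 and 5 (horizontal axis). Adgra3, Adgre4 and Adgrf1 are 2-fold or more higher at day 5, with Adgre4 later than the other two, and Adgre1 is lowest on every array.

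Known ligands and partners of these receptors were listed by gene. Of 17 listed, 16 had a row and 9 were measured. At day 5 against day 0, 3 were higher and 0 were lower, and the median was 0.14. The shares of all measured genes were 6.78% and 6.56%. Higher were the integrin chains Itgb3 (6.12) and Itgav (1.42), which form an integrin bound by CD97, and Cd55 (1.08), a complement regulator also bound by CD97. The listed integrin chains Itga5 (-0.27) and Itgb1 (0.14) were neither, and Thy1 lay below the level filter. Cd55 had 4.62, 4.90, 4.67, 5.54 and 5.70 at days 0, 1, 2, 3 and 5, close to the filter level. Flrt2, a latrophilin ligand, had 8.31, 10.32, 9.72, 8.71 and 8.70 on those days, so it was 2.01 higher at day 1 than at day 0 and 0.40 higher at day 5. Flrt3, named after its values were seen, differed from day 0 by 1.01 at day 1 and by -0.11 at day 5. Against day 1, 1 of the 9 was higher at day 5 and 2 lower, Flrt2 (-1.62) and Flrt3 (-1.12). The shares of all measured genes were then 6.3% and 6.73%. The 4 teneurin genes and Lama2, a chain of the laminin bound by GPR126, were below the level filter, and the collagen IV genes Col4a1 (-0.19) and Col4a2 (-0.08) were neither.

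Genes of the signalling arms downstream were described in the same way, day 5 against day 0. Over all measured genes 6.78% were higher and 6.56% lower. In lists this short the counts of G alpha and cAMP genes do not stand clear of these shares. Of 9 measured G alpha subunits 0 were higher and 1 lower, Gna15 (-2.64), the Gq-class subunit of blood cells, which had 9.35, 8.09, 7.42, 6.46 and 6.71 at days 0, 1, 2, 3 and 5. The others named were Gnai1 (0.93), Gna12 (-0.80) and Gna13 (0.55), and the median was -0.28. In the cAMP arm, the route used by GPR126, 0 of 17 were higher and 2 were lower, and the median was -0.41. Lower were the phosphodiesterase Pde3b (-1.92) and the kinase regulatory subunit Prkar2b (-1.27), while Prkacb was at -0.83 and the cyclase Adcy2 at -0.82. Pde3b had 8.25, 7.11, 6.81, 5.70 and 6.33 at days 0, 1, 2, 3 and 5, with lower values on all arrays after day 1 than on that of day 1. Against day 1 the cAMP median was -0.06, with 0 of 17 higher or lower at day 5, beside 6.3% and 6.73% of all measured genes. Arrestins and receptor kinases, which switch GPCRs off, had 1 of 5 higher and 2 lower (median -0.44). The kinase Grk3 had 5.71, 7.44, 8.44, 9.04 and 8.97 at days 0, 1, 2, 3 and 5 and was 9.60-fold higher at day 5 (3.26), while the arrestin Arrb2 (-1.21) and the kinase Grk5 (-1.20) were lower and Arrb1 was at -0.44.

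Markers of other cells were read beside these values. Over all measured genes 6.78% were higher and 6.56% lower at day 5 than at day 0. Of 9 measured neutrophil markers 0 were higher at day 5 than at day 0 and 4 lower (median -0.98): S100a9 (-1.38), Ngp (-1.38), Elane (-1.27) and Ltf (-1.15). Of 3 measured lymphocyte markers Cd5 was higher (2.71) and Cd4 (0.39) and Nkg7 (-0.21) neither. Of 2 stromal markers Dcn was higher (1.93, but -1.33 against day 1) and Col1a1 neither (0.19), and of 3 endothelial markers Vwf was higher (1.87), Cdh5 lower (-1.29) and Kdr neither (-0.21). Of 4 megakaryocyte and erythroid markers 0 were higher and Ppbp was lower (-1.84). The part of such cells in the adhesion GPCR values was not tested. Of 11 measured reference genes, of the kind used to scale expression, Sdha was higher at day 5 than at day 0 (1.10) and 0 were lower, with Hprt at -0.59, Polr2a at 0.48 and Actb at -0.41.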

How the data were processed

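Per the submitters' processing notes, the deposited log2 values came from RMA (oligo, R 3.4.0), that is background subtraction, quantile normalisation of the arrays and median polish over probes. Which genome build lay behind the rows is not given in the sources used here, nor is the summary level. Quantile normalisation hides any shift of all genes between days. The table held 41345 rows, of which 23521 name 1 gene in the platform annotation, 1814 several and 16010 are not listed. Arrays were assigned to days by the time in the labels. Where a gene had more than 1 row (1082 genes), its brightest by mean was taken; each of the 4 genes followed had 1 row. Differences between arrays were taken from the values as deposited, with no test. Named were the 4 genes, the 5 other measured family genes and 4 measured genes of each list with the largest day 5 difference, and the 3 nearest courses per gene. For the lists of other cells only the leading genes are printed. The genes followed and the 17 lists were chosen with earlier results of these data known. One of these lists is not reported here. Counting was tested on simulated data, with noise drawn from the day 5 minus day 3 differences (SD 0.24). That noise is smaller than the yardstick of 0.42, so the simulation does not show how counting fares on these data. The search for similar courses was run only on exact copies of measured courses, so its outcome was fixed in advance. Alternatives covered scaling, several rows, fold, level filter and days. Python 3.11.15, numpy 2.4.6, pandas 2.3.3 and matplotlib 3.10.9 were used, with RefSeq of GRCm38.p6, to which 23328 rows of 1 gene were matched by Entrez identifier.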

Additional observations from a re-analysis of the deposited data

How the results depend on the processing

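No paired analysis was possible because each day had 1 array. At day 5 against day 0, 1 of the 4 genes was higher and 0 lower, and 3 of the 12 measured family genes were higher and 0 lower. Of the 111 measured genes of the other lists 25 were higher and 21 lower. The shares of all measured genes were 6.78% and 6.56%. The lower counts of the 4 genes and of the family became 1 each, for Adgre1, with arrays centred on the reference genes by either method, with day 3 in place of day 5 and at 1.5-fold; the share of all measured genes that were lower was 19.8% and 6.86% under the 2 centrings, 7.5% with day 3 and 14.0% at 1.5-fold. Using the reference genes' median as each array's zero shifted every day 5 difference by 0.58 downwards. This gave -1.57 for Adgre1, 2.11 for Adgre4, -0.94 for Adgrg6 and -0.47 for Adgrl2, whose sign turned, and 44 lower list genes. That median fell on Sdha at day 0 (11.19) and on Pgk1 at day 5 (11.77). The 0.58 thus came from a change of the middle gene, as the median difference of the reference genes was -0.003. The turned sign and the 44 rest on it. Centring gene by gene, added after seeing the data, shifted the day 5 differences by 0.02. The lower list genes were 12 with day 1 in place of day 0, 33 at 1.5-fold and 12 with the level filter at the 75th percentile. That filter leaves out Adgre4 and Adgrg6 and keeps 2 of the 4 genes, 3 of the 12 family genes and 74 of the 111 list genes. Of those kept, 0 of the 2 genes and 1 of the 3 family genes were higher, against 7.14% of all genes kept. With day 1 in place of day 0 the values were 0.25 for Adgre1, 3.42 for Adgre4 and 0.68 for Adgrg6, day 0 being the highest array of the first and last of these. With day 3 in place of day 5 Adgre4 was at 1.66. The other 40 counts stayed within 1.5 times, and 16 gene differences moved by less than 0.42. One array a day limits every value, and low values are compressed by background handling.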

Other observations

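The row that names both Adgre5 and Ddx39a had log2 values of 9.97 at day 0, 9.46 at day 1, 10.48 at day 2, 11.28 at day 3 and 11.23 at day 5, which is 1.26 or 2.39-fold higher at day 5 than at day 0. Ddx39a, an RNA helicase gene, has another row of its own with 7.99, 8.60, 8.47, 7.57 and 7.32 on those days, which is -0.66 at day 5 against day 0. The shared row thus stood highest on the late arrays, where the row of Ddx39a alone stood lowest. The shared row cannot be assigned to either gene, and its values enter no count above.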
